A study of Mus musculus with 10 samples.

Results

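The FoxO genes encode forkhead box transcription factors of class O, and all 4 that the mouse carries, Foxo1, Foxo3, Foxo4 and Foxo6, were followed here among the 39179 genes counted in tibialis anterior, a fast muscle of the lower leg. They were chosen as the members of 1 gene family, and all 4 were among the 12690 genes with enough reads to be tested. RNA was sequenced from 10 mice. The 6 LLC mice received Lewis Lung Carcinoma cells, a mouse lung cancer line that wastes muscle and fat (cachexia), under the skin of both flanks. The 4 Control mice received buffer (PBS) in place of cells and carried no tumor. The labels describe C57BL/6J mice of 10 weeks with 23 days of tumor development, whereas the design text describes male C57BL/10 mice of 8 weeks studied on day 22, so strain, age and day are given here as stated and not as settled. No transgene or deletion is named in the labels, and each sample was 1 animal. The LLC animals sequenced were survivors of the full study period, so animals that died earlier are not represented.

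FoxO proteins bind DNA through a forkhead domain and switch on genes that slow growth and mobilise stored protein and fuel. Insulin and insulin-like growth factor signal through PI3-kinase to Akt, which phosphorylates FoxO proteins. Phosphorylated FoxO is held by 14-3-3 proteins and leaves the nucleus. In fasted or wasting muscle, nuclear FoxO raises transcription of ubiquitin ligases such as atrogin-1 (Fbxo32) and MuRF1 (Trim63), which mark muscle proteins for the proteasome, and of autophagy genes. Activity is set largely by phosphorylation and location of the protein, which transcript counts do not measure.

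Promoters of 3 genes are shown, those of Foxo1, Foxo3 and the classical FoxO target Trim63. The Foxo3 and Trim63 transcripts followed that of Foxo1 across tumor-bearing mice, but none of the 3 genes passed the main threshold given below. Promoter windows of Foxo4, Foxo6 and Fbxo32 were not available here, although Foxo6 and Fbxo32 did pass it. Each runs 5' to 3' on the strand of its gene, from 250 bases before to 50 after the annotated start, and is taken from RefSeq on build GRCm38.p6. Capitals mark the FoxO core GTAAACA or its reverse complement TGTTTAC. Neither the Foxo1 nor the Foxo3 window holds these letters or the related CAAAACA and its reverse complement TGTTTTG, so both are in lower case throughout. Foxo1 lies at chr3:52268087-52268386 on the plus strand, Foxo3 at chr10:42276646-42276945 on the minus strand and Trim63 at chr4:134314870-134315169 on the plus strand.
Foxo1: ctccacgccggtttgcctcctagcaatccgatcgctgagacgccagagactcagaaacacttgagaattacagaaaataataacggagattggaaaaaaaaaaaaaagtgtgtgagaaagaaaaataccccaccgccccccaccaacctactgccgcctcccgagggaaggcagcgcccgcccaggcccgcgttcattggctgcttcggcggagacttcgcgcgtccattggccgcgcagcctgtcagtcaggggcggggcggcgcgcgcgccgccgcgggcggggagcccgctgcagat
Foxo3: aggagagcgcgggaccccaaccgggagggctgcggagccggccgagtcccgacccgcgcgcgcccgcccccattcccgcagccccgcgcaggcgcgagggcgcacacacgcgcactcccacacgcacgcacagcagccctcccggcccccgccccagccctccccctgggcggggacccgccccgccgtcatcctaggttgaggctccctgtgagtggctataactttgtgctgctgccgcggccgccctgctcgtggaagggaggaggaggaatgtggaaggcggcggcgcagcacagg
Trim63: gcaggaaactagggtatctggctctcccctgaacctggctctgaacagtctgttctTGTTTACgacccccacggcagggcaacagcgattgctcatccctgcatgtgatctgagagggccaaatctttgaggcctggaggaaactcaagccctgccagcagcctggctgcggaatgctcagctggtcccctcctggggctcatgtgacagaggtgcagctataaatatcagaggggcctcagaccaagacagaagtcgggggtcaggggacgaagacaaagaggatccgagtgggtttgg

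The Foxo1 and Foxo3 windows were rich in G and C (61.3% and 75%) with 31 and 35 CpG pairs, against 57% and 7 CpG pairs for Trim63. In the Trim63 window TGTTTAC began 194 bases upstream of the start. Over all 32851 promoters of the same length, 3.65% held GTAAACA on either strand and 6.28% held CAAAACA. Of 41 promoters belonging to 35 listed FoxO targets, 5 held GTAAACA (12.2%) and 3 held CAAAACA (7.32%). The 5 belonged to Trim63, Sesn1, Txnip, Bbc3 and Bcl2l11. These are descriptions of letters in short windows and not evidence of binding.

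Library totals ran from 16693209 to 21303084 counts, so 3 counts, the floor used here, amounted to 0.141 to 0.180 CPM (counts scaled to a common library total). The totals of LLC mice were the smaller (p = 0.0381, two-sided exact permutation test), as was the mitochondrial share of counts, 28.4% to 30.7% in Control and 22.0% to 27.9% in LLC (p = 0.00952, exact permutation test, the smallest that 210 splits allow). LLC replicate 1 had the lowest total and the lowest mitochondrial share. Its Foxo1 and Foxo3 values were the highest and its Foxo6 value the lowest of the LLC mice, while its Foxo4 value lay close to the others. Results are therefore given with and without it. Because LLC 1 was singled out by these same values, fits without it describe sensitivity and are not an independent test. Defining markers of skeletal fibres were abundant in every library, with a summed level of 112277 to 119721 CPM over 8 genes in Control and 73763 (LLC 1) to 121348 in LLC. None of the 8 passed the test. Other cell types differed more. All 5 fibroblast markers fell (sums of 240 to 305 CPM in Control, 48.2 to 81.6 in LLC), where 3.99% of all tested genes were lower past the threshold. The 4 tested neutrophil markers were higher (sums of 0.424 to 1.63 against 28.4 to 61.8 CPM, with Ly6g below the filter), as were 1.65% of all tested genes. They were low in Control and met the low-count filter through LLC, where they were high. That all 4 rose is therefore no separate result. The endothelial sum was 259 to 328 against 239 to 280 CPM with 1 of 6 lower. Of 3 satellite cell markers 2 fell, Pax7 (2.39 to 1.18 CPM on average) and Myf5 (1.12 to 0.580 CPM). Cdh15, at 21.3 and 22.4 CPM, did not, and it made up most of the sum (22.0 to 27.2 against 20.0 to 33.0 CPM). Smooth muscle and pericyte markers fell in 2 of 4 (sums of 371 to 416 against 215 to 305 CPM). Macrophage markers fell in 1 of 4 tested (sums of 7.89 to 12.1 against 4.52 to 9.07 CPM). Adipocyte markers summed to 0.876 to 6.22 and 1.52 to 3.39 CPM with none of the 2 tested past the threshold, and the carcinoma markers Epcam, Krt8 and Krt18 summed to at most 0.219 CPM in any library. The part of these shifts in the FoxO values was not tested. In whole muscle, fewer cells of a type and less RNA per cell cannot be told apart.

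The family did not move as 1 unit. Foxo6 fell to 0.258 times its Control level in LLC mice and was the only member past the threshold, which required a Benjamini-Hochberg adjusted p of at most 0.05 in edgeR's quasi-likelihood test over all 12690 genes and a change of at least 1.5-fold. Across all tested genes 5.63% passed it, 1.65% higher and 3.99% lower. Foxo1 and Foxo3 had higher LLC means, with the highest value of each in LLC 1, and did not pass. Foxo4 was slightly and evenly higher, by 1.21-fold, below the fold required. Groups did not overlap for Foxo3, Foxo4 and Foxo6, where 16.0% of all tested genes had groups that did not overlap (6.40% higher and 9.57% lower in LLC).

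**Figure D1:**
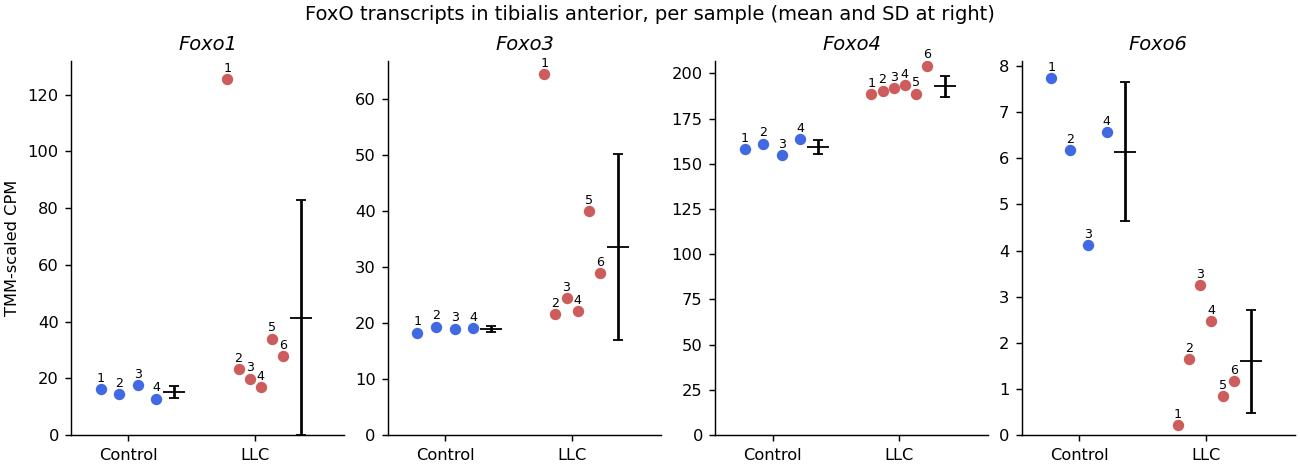
CPM (scaled by TMM factors, vertical axis from 0) of Foxo1, Foxo3, Foxo4 and Foxo6 in each Control and LLC mouse, numbered by replicate, with the group mean and SD at the right of each group (the lower bar of Foxo1 in LLC is stopped at 0). LLC 1 holds the highest Foxo1 and Foxo3 values (126 and 64.4 CPM) and the lowest Foxo6 value (0.206 CPM), while Foxo4 stays between 189 and 204 CPM in all 6 LLC mice.

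Foxo1 (ENSMUSG00000044167, plus strand of chromosome 3 from 52268336 to 52353221, GRCm38) encodes the member best known for driving Fbxo32 and Trim63 in muscle and gluconeogenic genes in liver. Its level in Control mice 1 to 4 was 16.3, 14.4, 17.6 and 12.8 CPM (15.3 ± 2.08, SD, n = 4), after scaling by TMM factors, which correct library totals for composition. LLC mice 1 to 6 had 126, 23.3, 19.9, 16.9, 34.0 and 27.8 CPM (41.2 ± 41.8, SD, n = 6, median 25.5). LLC 1 stood at 8.22 times the Control mean, whereas LLC 4, at 1.11 times, lay below Control 3, so the groups overlapped. The fitted log2 fold change was 1.43 ± 0.54 (SE), with an adjusted p of 0.121 in edgeR. DESeq2, the tool named for the study's own comparison, gave an adjusted p of 0.0833 here (Wald test). The paper itself reports Foxo1 as up-regulated and Foxo6 as down-regulated, and no other FoxO gene as changed. Its methods name an earlier DESeq2 release, RefSeq genes and a p-value cutoff, whereas its figure legends give a false discovery rate. Why Foxo1 passed there and not here was not tested. Without LLC 1 the other 5 LLC mice averaged 24.4 ± 6.73 CPM (SD, n = 5), the log2 fold change was 0.68 ± 0.18 and the adjusted p 0.0274 in edgeR, past the threshold that 7.65% of 12624 genes then passed. The coefficient of variation of Foxo1 was 13.6% in Control and 101% in LLC, and its LLC spread on the log2 scale exceeded that of 98.5% of tested genes. An annotated antisense gene, Gm20402, shares 674 exonic bases with Foxo1 and had 0 counts in all 10 libraries.

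Foxo3 (ENSMUSG00000048756, minus strand of chromosome 10 from 42181841 to 42276755) encodes a regulator of autophagy as well as of ubiquitin ligases in muscle. Control mice gave 18.3, 19.4, 19.0 and 19.1 CPM (18.9 ± 0.460, SD, n = 4). LLC mice 1 to 6 gave 64.4, 21.6, 24.4, 22.1, 39.9 and 28.8 CPM (33.5 ± 16.6, SD, n = 6, median 26.6). Every LLC mouse lay above every Control mouse, by as little as 1.14 times and as much as 3.40 times the Control mean, and LLC 1 was again the highest and LLC 5 the next. The log2 fold change was 0.83 ± 0.29 with an adjusted p of 0.103 in edgeR, so the gene did not pass. In DESeq2 it was 0.84 with an adjusted p of 0.0423 and passed, where 8.31% of genes did. Without LLC 1 it was 0.54 ± 0.16 with an adjusted p of 0.0432 in edgeR, under 1.5-fold.

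Foxo4 (ENSMUSG00000042903, plus strand of the X chromosome from 101254528 to 101260873) encodes a member that shares the Akt sites of the family. Control mice had 158, 161, 155 and 164 CPM (159 ± 3.94, SD, n = 4). LLC mice had 189, 190, 192, 194, 189 and 204 CPM (193 ± 5.89, SD, n = 6). The 6 LLC values were nearly equal, LLC 1 included, and all were above the Control values. Foxo4's coefficient of variation in LLC was 3.05%, and 0.126% of tested genes had a smaller LLC spread on the log2 scale. The log2 fold change was 0.27 ± 0.07, with an adjusted p of 0.0418 in edgeR, which 6.99% of genes reached at any fold, and 4.65e-07 in DESeq2. The adjusted p was at most 0.05 in 8 of 22 alternative settings, while the log2 fold change stayed between 0.24 and 0.34 in all 22. The 22 include leave-one-out fits, 1 setting without adjustment and 1 that added the antisense gene Gm20402, which had no counts. The last repeated the main fit and is among the 8.

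Foxo6 (ENSMUSG00000052135, minus strand of chromosome 4 from 120267079 to 120287349) encodes a member best described in brain and liver, which unlike the others shuttles little between nucleus and cytoplasm. Read counts were 146, 125, 76 and 120 in Control and 4, 29, 56, 49, 17 and 21 in LLC mice 1 to 6. On the CPM scale Control mice had 7.73, 6.17, 4.11 and 6.57 (6.15 ± 1.51, SD, n = 4) and LLC mice had 0.206, 1.64, 3.24, 2.47, 0.843 and 1.17 (1.60 ± 1.11, SD, n = 6). The LLC maximum, in LLC 3, was below the Control minimum, in Control 3. LLC 1 was the lowest, at 0.0335 times the Control mean, and its 4 counts correspond to an unscaled 0.240 CPM with a 95% exact binomial interval of 0.0653 to 0.614 that covers counting error only. The log2 fold change was -1.95 ± 0.44 with an adjusted p of 0.0230 in edgeR and 0.00154 in DESeq2, which called 5.24% of genes lower. Without LLC 1 it was -1.71 ± 0.30 with an adjusted p of 0.00406 in edgeR. The call was lost, with a fold change of nearly the same size, when Control 1, Control 2, Control 4, LLC 5 or LLC 6 was left out (adjusted p 0.0571 to 0.0800 in edgeR).

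Foxo6os, an antisense gene that starts 4000 bases beyond the 5' end of Foxo6 on the opposite strand (ENSMUSG00000084929, chromosome 4 from 120291350 to 120303892) and shares no exon with it, was looked at after its values were seen. It had 17.5, 22.7, 13.4 and 18.5 CPM in Control and 0.360, 7.12, 13.8, 5.64, 1.29 and 2.01 CPM in LLC mice 1 to 6. Again LLC 1 was the lowest and LLC 3, which overlapped Control 3, the highest, as for Foxo6. A log2 fold change of -1.85 ± 0.63 had an adjusted p of 0.0968 in edgeR, and 0.0374 without LLC 1. The log2 ratio of Foxo6os to Foxo6 differed between groups by -0.36 (exact permutation test, two-sided, p = 0.343).

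Levels of different genes were compared as CPM per kilobase of exon (RPKM). Foxo4 was by far the most abundant FoxO transcript in all 10 mice, at 45.8 ± 1.13 RPKM in the 4 Control mice and 55.4 ± 1.69 RPKM in the 6 LLC mice (mean ± SD). In Control the other 3 lay close together, at 2.50 ± 0.0607 RPKM for Foxo3, 2.35 ± 0.578 for Foxo6 and 1.76 ± 0.240 for Foxo1. Neighbours in that order overlapped in their spread, with Foxo3 above Foxo6 in 3 of 4 Control mice and Foxo6 above Foxo1 in all but 1. In LLC the order below Foxo4 was clearer at its foot. Foxo1 (median 2.95 RPKM) and Foxo3 (median 3.52) both exceeded Foxo6 (0.610 ± 0.424) in 6 of 6 mice. Foxo1 exceeded Foxo3 in 1 of 6, LLC 1, and in 0 of 4 Control mice, although the LLC means, 4.76 ± 4.82 and 4.43 ± 2.19 RPKM, put them the other way round.

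**Figure D2:**
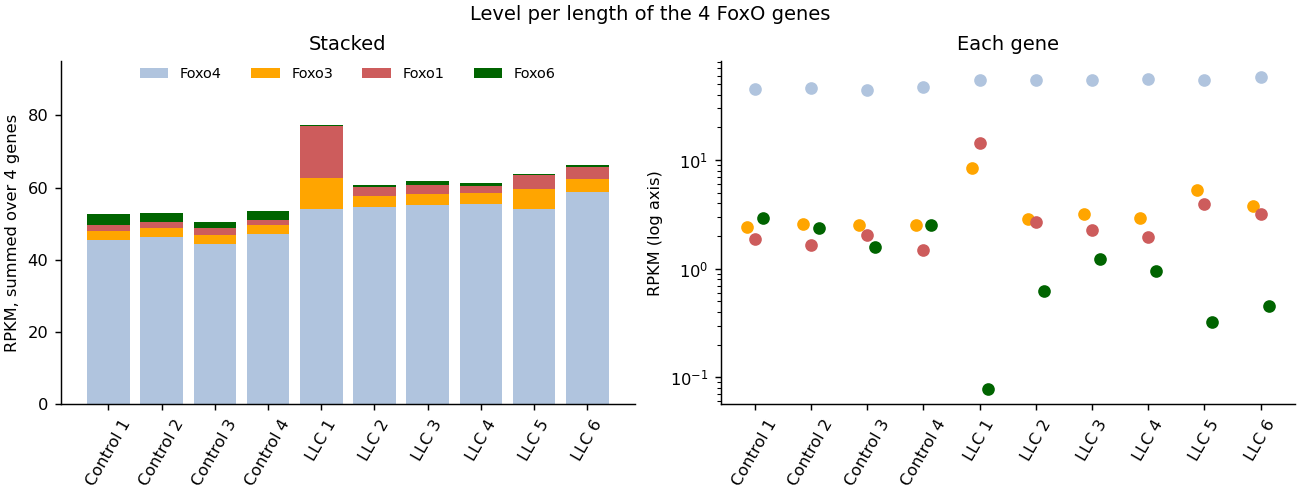
RPKM of the 4 FoxO genes in each mouse, stacked from 0 at the left and on a log axis at the right, in the same colours. Foxo4 makes up most of every bar, Foxo1 and Foxo3 widen in LLC 1, and Foxo6 (green) drops below the other genes in all 6 LLC mice.

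Summed over the 4 genes, FoxO transcripts came to 50.5 to 53.5 RPKM in Control and 60.8 to 77.2 RPKM in LLC. Foxo4 contributed 87.4% of the sum in Control and 85.6% in LLC on average, but 70.1% in LLC 1. Foxo1 contributed 3.37% and 6.85%, with 18.8% in LLC 1, and Foxo3 4.77% and 6.62%. The share of Foxo6 was 4.47% in Control and 0.977% in LLC, and 0.102% in LLC 1. These shares are descriptions and were not tested.

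Whether members changed differently from one another was tested on the log2 ratio of each of the 6 pairs within a mouse. Library scaling cancels in it except through the prior count of 2. That prior weighs at low counts, such as the 4 Foxo6 counts of LLC 1. The exact permutation test was two-sided and p-values were adjusted over the 6 pairs. Each ratio to Foxo6 was higher in LLC, by 3.23 for Foxo1, 2.89 for Foxo3 and 2.46 for Foxo4, with an exact p of 0.00952 and an adjusted p of 0.0190 in each case, and in each case the lowest LLC ratio was above the highest Control ratio. The Foxo1 to Foxo6 ratio, for example, was 0.95 to 2.07 among Control mice and 2.58 to 8.65 among LLC mice. All ratios to Foxo6 share its values, so they are not separate results. No difference was shown among the other 3 pairs. The LLC minus Control difference was 0.33 for Foxo1 over Foxo3 (adjusted exact p = 0.210), 0.76 for Foxo1 over Foxo4 (0.129) and 0.43 for Foxo3 over Foxo4 (adjusted exact p = 0.210). For Foxo1 over Foxo4 the adjusted exact p was 0.0476 once LLC 4 was left out.

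Tumor-bearing mice differed among themselves, and Foxo1 and Foxo3 ran together across them while Foxo6 ran the other way. Over the 6 LLC mice Foxo1 and Foxo3 had a Pearson r of 0.953 on log2 CPM (exact permutation p = 0.0111, adjusted over 5 relations 0.0139) and a Spearman rho of 0.829 (exact p = 0.0583, adjusted 0.0729). Foxo1 and Foxo6 ran opposite, with r = -0.960 (exact p = 0.00556, adjusted 0.00926) and rho = -0.943 (exact p = 0.0167, adjusted 0.0278). Foxo4 showed no such relation, with r = -0.325 (exact p = 0.464, adjusted 0.464) and rho = -0.657 (exact p = 0.175, adjusted 0.175). Fbxo32 and Trim63, the ubiquitin ligases examined in this way, ranked exactly as Foxo1 did. The other listed ligases were not compared with Foxo1. The share of all genes that follow Foxo1 as closely was not computed either, so these values do not single out the ligases. The 5 genes nearest to Foxo1 in profile, given below, are not on the target list. For Fbxo32 r was 0.958 and rho 1, and for Trim63 r was 0.932 and rho 1 (exact p = 0.00278 for each, the smallest that 720 pairings allow, adjusted 0.00694). Without LLC 1 and LLC 4, the mice farthest from the median of Foxo1, r was 0.882 with Foxo3, 0.0494 with Foxo4, -0.967 with Foxo6, 0.937 with Fbxo32 and 0.868 with Trim63 (n = 4, not tested). All points share their libraries, and the mitochondrial share of counts was lowest in LLC 1 and LLC 5, which had the highest Foxo1 levels. Its part in these relations was not tested.

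**Figure D3:**
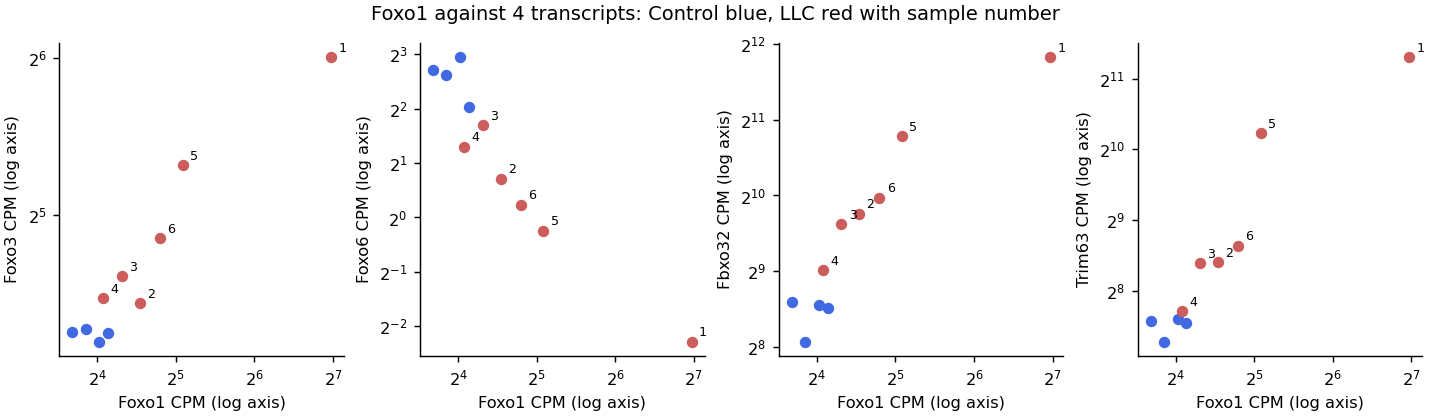
Foxo1 CPM (horizontal, log axis) against Foxo3, Foxo6, Fbxo32 and Trim63 CPM (vertical, log axes), with 1 point per mouse, Control in blue and LLC in red with the replicate number. Fbxo32 and Trim63 climb with Foxo1 at every step from LLC 4 to LLC 1. Foxo3 mostly climbs, with its lowest LLC value in LLC 2, and Foxo6 mostly descends, with its highest in LLC 3. LLC 1 lies apart from the rest.

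The genes whose profile over the 10 mice was most like each member were found among 10380 genes by the root mean square difference of log2 CPM, each gene taken relative to its own Control mean. For Foxo1 they were Rhou (0.10), Hgs (0.16), Retreg1 (0.18), Zwint (0.23) and Atp6v1h (0.23), against a median of 1.11 over the genes searched. Retreg1 is a receptor for autophagy of the endoplasmic reticulum, Hgs a sorting protein of endosomes and Atp6v1h a subunit of the proton pump that acidifies lysosomes. For Foxo3 they were Sorbs3, Trafd1 and Psmc2, a proteasome ATPase (0.048 to 0.075, median of all 0.72), and for Foxo4 Tmem127, Eif4e2 and Rbm28 (0.054 to 0.068, median of all 0.32). For Foxo6 they were Actc1, the cardiac actin also made in developing muscle, at 0.33, Nrep at 0.42 and Irx3os at 0.45 (median of all 1.93). The measure is not scaled to the size of a gene's own changes, which was 1.10 for Foxo1, 0.70 for Foxo3, 0.22 for Foxo4 and 1.92 for Foxo6 on the same scale, so the distances of different members are not comparable. Actc1 fell from 70.3 to 17.1 CPM on average (log2 fold change -2.04, adjusted p = 0.00755 in edgeR). It was the only one of these 14 genes past the threshold, which 5.63% of all tested genes passed. The 14 were picked for likeness to a member, and Foxo6 was the only member past the threshold. The count is therefore no separate result.

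**Figure D4:**
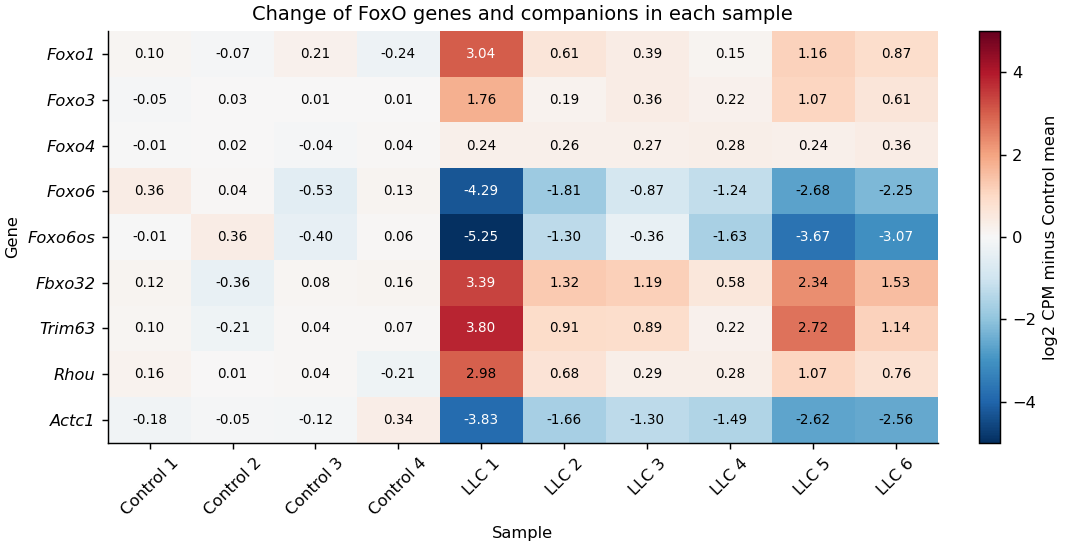
Log2 CPM minus the Control mean (colour and printed value) for the 4 FoxO genes, Foxo6os, Fbxo32, Trim63 and the nearest profiles of Foxo1 (Rhou) and Foxo6 (Actc1), in rows, for each mouse, in columns. In LLC 1 the values reach 3.04 for Foxo1 and -4.29 for Foxo6, and Foxo4 stays between 0.24 and 0.36 in every LLC mouse.

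FoxO targets were described through a list of 42 genes, of which 40 were tested (Pck1 and G6pc were below the filter, G6pc with 0 counts). Fbxo32 and Pdk4 rose past the threshold and none fell, where 1.65% of all tested genes rose and 3.99% fell. Of the 40, 32 had a fitted change above 0, against 50.3% of all tested genes, and the median log2 fold change was 0.41, against 0.00193 over all tested genes. In 11 every LLC mouse exceeded every Control mouse, as in 6.40% of all tested genes, and in 0 the reverse held. The list was chosen with earlier results of these data known. These counts and the median are therefore descriptions and not independent support. How many passed depended on LLC 1 and on the tool. Without LLC 1, 7 passed (Fbxo32, Trim63, Gabarapl1, Sesn1, Cdkn1a, Gadd45a and Pdk4, of which Sesn1 and Gadd45a were named after their values were seen), where 2.28% of genes were higher past the threshold. DESeq2 called 7, with Map1lc3b in place of Sesn1, where it called 3.06% of genes higher. Without Control 1, 2, 3 or 4 or without LLC 5, 0 were higher past the threshold, 4 were without LLC 2, 5 without LLC 4 and 1 (Fbxo32) without LLC 6. Over all tested genes the number higher also moved, from 209 with every mouse kept to between 110 and 288 with 1 left out. At an unadjusted p of at most 0.05 with the same fold, 14 were, as were 4.93% of all tested genes.

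Of the 5 ubiquitin ligases listed, 1 rose and 0 fell, where 1.65% of all tested genes rose and 3.99% fell. Fbxo32 went from 349 ± 53.8 CPM in Control to 1426 ± 1157 in LLC (SD), with a log2 fold change of 2.03 ± 0.49 and an adjusted p of 0.0307 in edgeR. LLC mice 1 to 6 had 3630, 865, 788, 517, 1756 and 1001 CPM, so that even the lowest, LLC 4, was above the Control maximum of 385. Its call was lost without any 1 of the Control mice or without LLC 5 (adjusted p 0.0667 to 0.0980 in edgeR). Trim63 had 183 ± 17.5 CPM in Control and, in LLC mice 1 to 6, 2529, 341, 336, 211, 1197 and 399.7 CPM. The groups did not overlap, but the log2 fold change of 2.19 ± 0.66 had an adjusted p of 0.0718 in edgeR, and 0.0338 without LLC 1.

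Of 12 autophagy and lysosome targets, 0 passed in edgeR and 2 were higher past the threshold in DESeq2, as were 3.06% of all genes there. An unadjusted p under 0.05, at any fold and in either direction, was found for 7 of the 12 and for 27.4% of all tested genes. Gabarapl1, a ubiquitin-like protein of the autophagosome membrane, had a log2 fold change of 1.17 ± 0.36 (adjusted p = 0.0774) and Map1lc3b, its LC3 relative, 0.79 ± 0.25 (adjusted p = 0.0834). For the mitophagy receptor Bnip3 it was 0.83 ± 0.38 (adjusted p = 0.184). In each of these the highest value was in LLC 1. Of 7 genes of growth restraint and insulin feedback 0 passed in edgeR or DESeq2 and 3 had an unadjusted p under 0.05 (27.4% of all tested genes). Eif4ebp1, a repressor of cap-dependent translation, was at 1.67 ± 0.60 (adjusted p = 0.111) and ranged from 28.7 to 270.4 CPM in LLC. Irs2, an insulin receptor adaptor, was at -0.13 ± 0.27 (adjusted p = 0.771).

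Of 12 cell cycle, death and stress targets 0 passed in edgeR, 7 had an unadjusted p under 0.05 (27.4% of all tested genes) and 2 were higher past the threshold in DESeq2 (3.06% of all genes). The cyclin-dependent kinase inhibitor Cdkn1a had 9.61 CPM on average in Control and 10.2 to 246 CPM in LLC, with LLC 1 highest, and a log2 fold change of 2.71 ± 0.84 (adjusted p = 0.0758 in edgeR). Of 4 fuel metabolism targets tested 1 passed, higher in LLC (1.65% of all tested genes). Pdk4, the kinase that shuts off pyruvate dehydrogenase in fasting, rose from 567 to 1327 CPM (log2 fold change 1.23 ± 0.33, adjusted p = 0.0480 in edgeR). Its LLC values of 1982, 580, 1405, 844, 2009 and 1139 CPM overlapped the Control maximum of 649 in LLC 2. That call was lost when any 1 of Control 1 to 4, LLC 3, LLC 5 or LLC 6 was left out.

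Of 39 FoxO regulators listed, 38 were tested (Prmt1 was not analysed here) and 0 passed in edgeR, while 6 had an unadjusted p under 0.05, where 27.4% of all tested genes did. DESeq2 called 2 of the 38 lower, Igf1 and Sirt3, the latter named after its values were seen. It called 5.24% of all genes lower, so this count is near the background and is no result about the regulators. Fitted changes were above 0 in 25 and below in 13, with a median of 0.08. The same 2 genes passed without LLC 1, where 5.37% of all genes were lower past the threshold. Igf1, the growth factor that holds FoxO inactive through Akt, averaged 15.9 CPM in Control and 7.65 in LLC with no overlap (log2 fold change -1.06 ± 0.37, adjusted p = 0.0999 in edgeR). LLC 1 had the lowest Igf1 value, 2.01 CPM. Akt2, the Akt isoform of insulin-responsive tissue, was higher in every LLC mouse, at 277 to 338 CPM against a Control mean of 239 (0.40 ± 0.09, adjusted p = 0.0221 in edgeR, under 1.5-fold). Akt1 averaged 64.5 CPM in Control and 50.4 to 74.3 CPM in LLC mice 2 to 6, but 200.04 CPM in LLC 1. The log2 fold change of 0.41 ± 0.34 (adjusted p = 0.445) became -0.03 without LLC 1. For the kinase Sgk1 the change was 0.22 (adjusted p = 0.290) and for the deacetylase Sirt1 0.19 (adjusted p = 0.440).

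**Figure D5:**
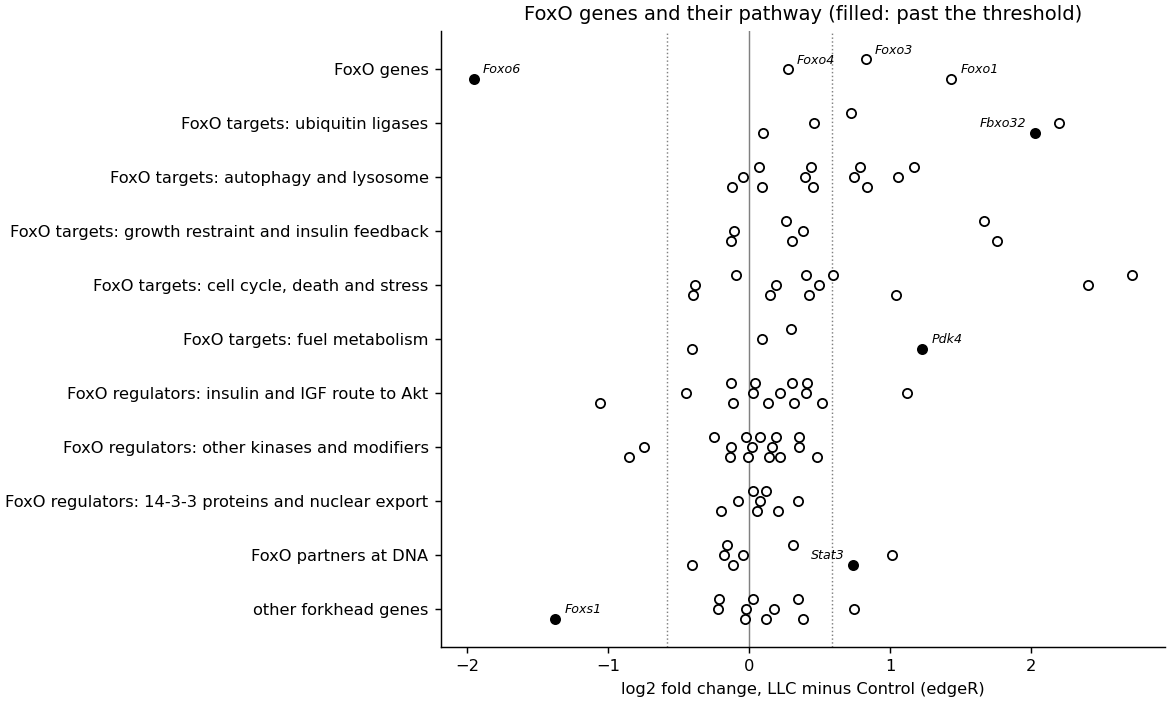
Log2 fold change, LLC minus Control, of each tested gene (1 circle each, stacked in height only to separate them) for the FoxO genes and 10 lists around them, with filled circles past the threshold and dotted lines at 1.5-fold. Among the genes drawn, Foxo6 and Foxs1 are filled at the left and Fbxo32, Pdk4 and Stat3 at the right, and the targets sit mostly right of 0.

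Of 8 partners that act with FoxO at DNA, 1 passed, higher in LLC, as did 1.65% of all tested genes. Stat3, the transcription factor of interleukin-6 signalling, had 39.8, 39.3, 40.3 and 40.2 CPM in Control and 80.5, 55.3, 50.2, 57.1, 83.1 and 72.8 CPM in LLC mice 1 to 6. The groups were well apart, and the log2 fold change was 0.74 ± 0.15 (adjusted p = 0.0128 in edgeR). DESeq2 also called Cebpb higher, named after its values were seen, where it called 3.06% of all genes higher. The coactivator Ppargc1a was at -0.40 ± 0.28 (adjusted p = 0.348) and the glucocorticoid receptor gene Nr3c1 at -0.04 ± 0.12 (adjusted p = 0.831), with the sign of the latter turning in 3 of 22 alternative settings.

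Among the 40 other forkhead genes 11 were tested, 17 had 0 counts in all 10 libraries, and 1 passed, lower in LLC, as did 3.99% of all tested genes. Foxs1, a forkhead gene known from the cells around blood vessels, had 26, 16, 22 and 19 counts in Control and 7 to 9 in LLC. All 6 LLC mice were under 10 counts, so the gene met the low-count filter through Control, the group where it was high, and had no value with a filter of 10 counts in every sample. Its level went from 1.10 ± 0.248 to 0.418 ± 0.0290 CPM (log2 fold change -1.38 ± 0.21, adjusted p = 0.00216 in edgeR), beside the smooth muscle and pericyte markers given above. The most abundant per length was Foxk2, at a mean of 9.03 RPKM, with a log2 fold change of -0.03 ± 0.10 (adjusted p = 0.854). Foxo4 was, on this scale, the most abundant forkhead transcript of those tested in this muscle.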

How the data were processed

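Total RNA of tibialis anterior from 4 Control and 6 LLC mice was sequenced from both ends with stranded libraries, all in 1 lane, so no sequencing batch divides the groups. The authors mapped reads to mm10 with TopHat and counted them with HTSeq, and deposited the read counts of each gene as whole numbers without normalization, 1 library for each animal. The methods name default settings of HTSeq, which count reads by strand, and RefSeq genes, whereas the deposited counts are listed by Ensembl identifier. Whether that setting made these counts, for which strand and from which annotation release, is therefore not settled here. The values of the antisense genes Gm20402 and Foxo6os share this limit. Of 39179 identifiers, 37693 were found in GENCODE M21, which gave symbols, coordinates and exonic lengths. The FoxO genes and gene lists were chosen with earlier results of these data known.

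Groups and replicate numbers came from the labels. Counts were filtered with filterByExpr (minimum 10), scaled by TMM and tested with edgeR 4.0.16 (quasi-likelihood, R 4.3.3), with Benjamini-Hochberg adjustment over 12690 genes. The threshold was an adjusted p of 0.05 and 1.5-fold. Standard errors were derived from the F statistic. DESeq2 1.42.0, limma 3.58.1 (voom with quality weights), other scalings and filters, an offset for GC content and length, and leaving out each mouse were alternatives. Every p from edgeR, DESeq2 and limma given as adjusted is over all genes tested. Log2 CPM used a prior count of 2, and RPKM used TMM-scaled totals and the union of exons. Scripts were tested on simulated data. Totals of 16693209 to 21303084 counts limit Foxo6 most, and intervals and floors cover counting error only, since PCR reads lacking molecular identifiers do not count molecules independently. Pairs of replicates were set against sampling noise by chi-square over its degrees of freedom (3.71 to 8.11 in Control pairs, 7.92 to 181 in LLC pairs), so none was a repeat of another.

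Genes named were the 4 members, all listed genes past the threshold with a set of examples chosen whatever their value, genes whose exons overlap a member, the most abundant other forkhead gene, and the nearest profiles (genes of average log2 CPM of at least 1). Small RNA libraries were not analysed here.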

Additional observations from a re-analysis of the deposited data

Results flagged for a closer look

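In 7 of 38 groups of values searched, 1 mouse lay farther from its group than Dixon's 95% critical value. Chance gives about 1 in 20, or 1.9 groups. The groups share values, so the 7 are not independent and cannot be weighed against 1.9. LLC 1 accounted for 5, and all 5 include its Foxo1 level, so they are not separate observations. Its Foxo1 level of 125.6 CPM was the highest of the LLC mice, as were its Foxo1 share of summed FoxO RPKM, 18.77%, and its log2 ratios of Foxo1 to Foxo3, 0.9627, and of Foxo1 to Foxo4, -0.5869. Its Foxo4 share, 70.12%, was the lowest. LLC 6 had the highest Foxo4 level, 204.4 CPM, in a group of otherwise nearly equal values, and Control 2 had the lowest Fbxo32 level in its group, 269.5 CPM.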

How the results depend on the processing

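The LLC minus Control log2 fold change of each FoxO gene kept its sign in all alternatives run (22 each, 21 for Foxo6, which, like Foxs1 and Foxo6os, had no value with a filter of 10 counts in every sample). An unadjusted p, robust dispersion and adding the overlapping gene Gm20402, which had 0 counts, returned the main log2 fold change unchanged. They are therefore no check on the sign. Calls were less steady. With an unadjusted p Foxo1 (1.43) and Foxo3 (0.83) passed, and with DESeq2 Foxo3 did (0.84). Leaving out 1 mouse gave 0.68 to 1.59 for Foxo1 (0.68, passing, without LLC 1), 0.54 to 0.94 for Foxo3, 0.26 to 0.29 for Foxo4 and -2.28 to -1.71 for Foxo6. Limma voom with quality weights gave 0.57 for Foxo1 and 0.40 for Foxo3, both under 1.5-fold. Between the pairs, the Foxo1 to Foxo4 difference ran from 0.36 to 0.94. The Foxo1 and Foxo4 relation within LLC turned to r = 0.0494 without 2 mice, the Akt1 log2 fold change to -0.0567 with voom (-0.0298 to 0.525 with 1 mouse left out, negative without LLC 1), and that of Nr3c1 to 0.0434 with voom (-0.106 to 0.0154 with 1 mouse left out, positive without Control 2 or LLC 5).

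FoxO targets past the threshold and higher numbered 2, and 1 with 10 counts in every sample, 7 with DESeq2, 1 with robust dispersion, 6 with voom, 4 with no filter, 14 at an unadjusted p and 0 to 7 with 1 mouse left out. Lower targets numbered 1 with no filter and 0 to 1 with 1 mouse left out (Pck1, without Control 4). Lower regulators numbered 2 with DESeq2, 2 with voom, 1 with no filter, 2 at an unadjusted p and 0 to 2 with 1 mouse left out. Higher partners numbered 2 with DESeq2, 0 with voom and 2 at an unadjusted p. Other forkhead genes higher numbered 1 with DESeq2 (Foxk1, named after its values were seen) and 1 at an unadjusted p, and lower 0 with 10 counts in every sample. Over all genes, 209 higher and 506 lower became 116 higher with 10 counts in every sample, 388 higher with DESeq2, 626 higher and 946 lower at an unadjusted p, and 110 to 288 higher and 284 to 678 lower with 1 mouse left out. The cause was not tested.

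RPKM of Foxo3 in Control was 2.76 with the longest transcript as length and 2.36 without TMM factors. For Foxo4 these were 50.4 and 43.3 in Control and 61.0 and 57.6 in LLC. Median-of-ratios and upper-quartile scaling moved the median log2 fold change of all genes to 0.01 and -0.03.

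Replicate numbers belong to different animals and did not pair them (correlations of deviations -0.0292, 0.00932, -0.0814 and 0.126). With the replicate number as a block, Foxo6 was -1.84 and not past the threshold, 0 targets and 0 partners were higher, 0 other forkhead genes were lower, and 42 genes were higher and 70 lower over all genes. That fit uses fewer residual degrees of freedom and is not read as a weaker effect. Depth limits Foxo6 in LLC 1, with 4 counts, most.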
